A study of Mus musculus with 2 samples.

Results

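The genes described here handle heme and iron. They were taken by symbol from the gene table of the series: *Hmox1*, *Blvrb*, *Slc40a1*, *Fth1*, *Ftl1*, *Tfrc*, *Slc11a1*, *Cd163*, *Hp* and *Lcn2*, 10 of 55386 genes, and all 10 had a count above 0 in both libraries. CD45+ cells of the aortic adventitia of 16-week-old RankCreRosa26eYFP mice were sequenced one by one, with 1 droplet library at steady state (no treatment, 3 animals pooled) and 1 after 10 days of angiotensin II (AngII, 1.8 µg/kg/min, 2 animals pooled). In these mice, of which all carry both alleles, Cre driven from the *Rank* locus switches on eYFP in macrophages that derive from yolk sac progenitors, and a cell was called *Yfp*+ from 1 eYFP transcript. The animals of a pool cannot be separated, so each condition is 1 sample. No difference between the conditions has a replicate check and no p-value is given. Levels are in CPM, the unique molecular identifiers (UMIs, 1 per captured transcript) of a gene, summed over cells and scaled to 1000000 UMIs of those cells, and the 95% intervals are exact and cover counting error only.

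Macrophages take up dying red cells and free hemoglobin and return their iron to the body. Heme oxygenase-1 (*Hmox1*) opens the heme ring and releases iron and biliverdin, biliverdin reductase B (*Blvrb*) reduces biliverdin, ferritin made of heavy (*Fth1*) and light (*Ftl1*) chains stores the iron, and ferroportin (*Slc40a1*) exports it. Transferrin receptor 1 (*Tfrc*) brings in transferrin-bound iron, the phagosomal transporter *Slc11a1* (NRAMP1) moves iron out of phagosomes, *Cd163* is the receptor for hemoglobin bound to haptoglobin (*Hp*), and lipocalin 2 (*Lcn2*) binds the siderophores with which bacteria collect iron.

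The messages of 4 of the genes carry the hairpin to which iron regulatory proteins bind, the iron-responsive element, and its place differs with the gene's role. Such proteins block translation from an element in the 5′ untranslated region (UTR) and protect the message from decay through elements in the 3′ UTR. The elements below were found in the GENCODE M21 transcripts (build GRCm38) by their letters. A C, 5 stem bases, the loop CAGTGN, and 5 bases that pair with the stem (G with T allowed) were required, on the sense strand of UTRs of protein-coding genes, and the sequences are shown because storage and export share one layout and uptake has the other. Capitals mark the bulged C and the loop of 6 bases. A match is a description of letters, not a measured site.
*Slc40a1*, 5′ UTR, chr1:45925465-45925493, minus strand: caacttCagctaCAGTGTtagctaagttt
*Fth1*, 5′ UTR, chr19:9982732-9982760, plus strand: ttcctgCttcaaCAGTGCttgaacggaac
*Ftl1*, 5′ UTR, chr7:45459779-45459807, minus strand: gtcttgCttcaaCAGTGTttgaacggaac
*Tfrc*, 3′ UTR, chr16:32631219-32631247, plus strand: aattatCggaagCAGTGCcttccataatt
*Tfrc*, 3′ UTR, chr16:32631598-32631626, plus strand: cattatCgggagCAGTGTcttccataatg
*Tfrc*, 3′ UTR, chr16:32631663-32631691, plus strand: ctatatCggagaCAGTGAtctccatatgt
*Tfrc*, 3′ UTR, chr16:32631710-32631738, plus strand: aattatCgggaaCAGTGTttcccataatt

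The letters of this element were present in a 5′ UTR of 31 of 21901 protein-coding genes (0.142%) and in a 3′ UTR of 129 (0.589%). Of the 10 genes, *Slc40a1*, *Fth1* and *Ftl1* held 1 match each in the 5′ UTR, and *Tfrc* held 4 in the 3′ UTR. Transcript counts show only the message, so the translational arm of this control is not visible in these data.

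The libraries differed in depth. The steady state library held 306 cells after filtering with a median of 9105 UMIs, and the AngII library held 4198 cells with a median of 1092, of which 45.5% had fewer than 1000 UMIs. No cell barcode was shared. *Ptprc*, which encodes CD45, was found in 93.8% and 63.6% of the cells. Cells were placed in classes by fixed marker lists that hold none of the 10 genes. The macrophages were split into resident (*Lyve1*, *Folr2*, *Gas6*), reparative (*Arg1*, *Spp1*) and type-2 (*Ear2*, *Retnla*) macrophages, with the remainder called other macrophages. At steady state 117 of the 139 macrophages were resident and 22 type-2, while AngII gave 712 resident, 724 reparative, 393 type-2 and 498 other macrophages. Leading genes of the 22 type-2 cells at steady state included *Lyz1* and *Retnla* of the type-2 list. *Fn1*, *Inhba* and *Fabp5* of the reparative list were among them too. Of these 22 cells, 15 held at least 3 markers of a second lineage. Whether the type-2 cells of the 2 libraries are alike was not tested. Classes rest on few markers in shallow cells: in 1682 AngII cells and 41 steady state cells the first class led the next by at most 1 marker. The AngII classical monocyte class was led by immunoglobulin transcripts (*Ighg2c*, *Jchain*, *Igkc*), whose part in its values was not tested. In the 10 genes, a level over a class is an average over cells, and fewer expressing cells and fewer transcripts per cell are told apart only where values per cell are given.

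Among classes of at least 10 cells, the highest level of each gene lay in a myeloid class in both libraries, with *Tfrc* on AngII as the exception (T cells). At steady state, resident macrophages held the highest level of 7 genes, *Hmox1*, *Blvrb*, *Slc40a1*, *Fth1*, *Ftl1*, *Tfrc* and *Cd163*, while monocytes led *Slc11a1*, *Hp* and *Lcn2*. The lead in *Lcn2* was 6 UMIs in 1 of 14 nonclassical monocytes. The 4 steady state neutrophils, too few to be ranked, had 11 UMIs of *Slc40a1*, 15 of *Hp* and 6 of *Lcn2* among 23205. On AngII the resident macrophages kept the highest level of 2 of these, *Blvrb* and *Cd163*. The other leading classes were reparative macrophages (*Hmox1*, *Ftl1*), neutrophils (*Slc40a1*, *Lcn2*), nonclassical monocytes (*Fth1*, *Slc11a1*) and classical monocytes (*Hp*). Of these 20 leading classes, 14 were the same when cells were placed by the summed UMIs of the markers.

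**Figure D1:**
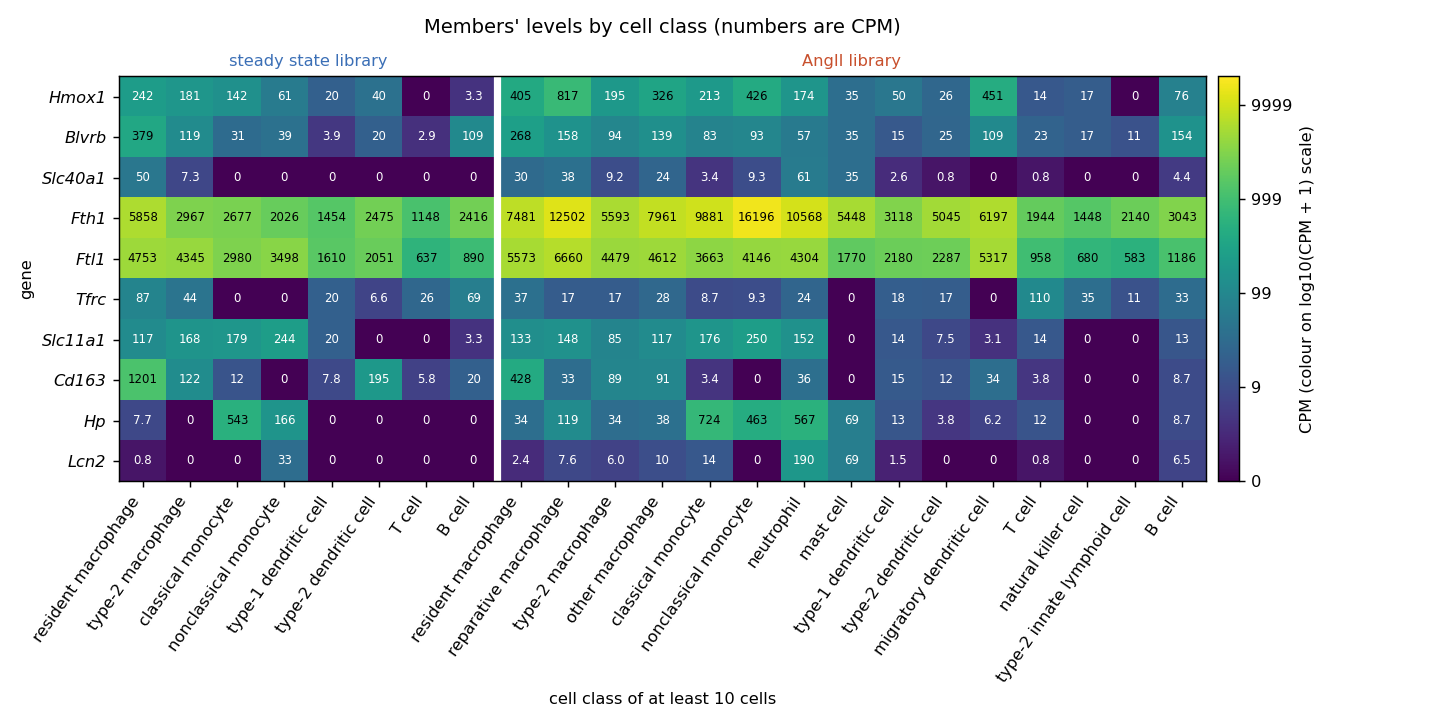
Level of each of the 10 genes (lines of the map) in each cell class of each library (columns) with at least 10 cells. Values are CPM of summed UMIs, written in each cell of the map and coloured on a log10(CPM + 1) scale. Resident macrophages at steady state combine *Cd163* at 1201 CPM with *Hmox1* at 242 CPM, and the highest *Hmox1* level, 817 CPM, stands in reparative macrophages on AngII.

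*Hmox1*, the enzyme that breaks down heme (chr8:75093621-75100589, plus strand), was higher on AngII. In all macrophages the level was 224 CPM at steady state and 493 CPM on AngII, 2.21 times as high (95% interval 1.99 to 2.44). Within resident macrophages it went from 242 to 405 CPM, a ratio of 1.68 (1.48 to 1.90), under the 2-fold mark used here for a call. The call in all macrophages ended when each cell was thinned to 1000 UMIs (1.65) or when each cell counted equally (1.87).

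The level of *Hmox1* on AngII differed between the macrophage subclasses. Reparative macrophages had 817 CPM, 2.02 times the level of resident macrophages (1.89 to 2.15), of which 1 cell held 20.7% of the UMIs. Without the cell with the most *Hmox1* in each class the levels were 657 CPM in reparative and 363 CPM in resident macrophages, under 2-fold, and with each cell counted equally resident macrophages were the higher. On AngII, other macrophages had 326 CPM and type-2 macrophages 195 CPM. Cells placed as type-2 macrophages at steady state had 181 CPM (ratio of AngII over steady state 1.08, 0.865 to 1.36). Neutrophils had 174 CPM and T cells 14.5 CPM.

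The share of cells with *Hmox1* gave another picture than its level. A UMI of *Hmox1* was found in 76.1% of resident macrophages at steady state (median 9800 UMIs) and in 49.9% on AngII (median 1718 UMIs), and after thinning to 1000 UMIs in 25% and 26.3%. Lymphocytes, shown as a background that free RNA, doublets or misplaced cells can all add to, had it in 0 of 39 T cells (which allows a share of up to 7.69%) and 1.96% of B cells at steady state, with medians of 8284 and 5591 UMIs. On AngII 5.03% of T cells and 15.7% of B cells had it, with medians of 1092 and 2152 UMIs. At matched depth the share of resident macrophages with *Hmox1* was thus close in both libraries, while the summed level differed.

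Values per cell showed where the AngII transcripts lay. In cells of at least 5000 UMIs, the median *Hmox1* level of resident macrophages was 205 CPM at steady state (102 cells, 0 to 939) and 197 CPM on AngII (200 cells, 0 to 8117). The reparative macrophages (164 cells) had a lower median, 122 CPM, with values up to 21318 CPM. The medians did not rise with the class levels, and the difference sat in the upper tail of the AngII cells.

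That tail was small and held much of the message. Of 457 AngII macrophages of at least 5000 UMIs, 25 (5.47%) exceeded 939 CPM, the highest value among the 122 steady state macrophages of that depth. These 25 cells carried 52.5% of all *Hmox1* UMIs of the 2327 AngII macrophages. They comprised 11 of 200 resident, 12 of 164 reparative, 1 of 89 type-2 and 1 of 4 other macrophages. Cells just under the limit had 919 and 905 CPM and those just over it 946 and 961 CPM, so the limit cuts a continuous range. The AngII library offered more cells from which to draw a high value, and the 25 cells are a range of *Hmox1*, not a cell type.

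**Figure D2:**
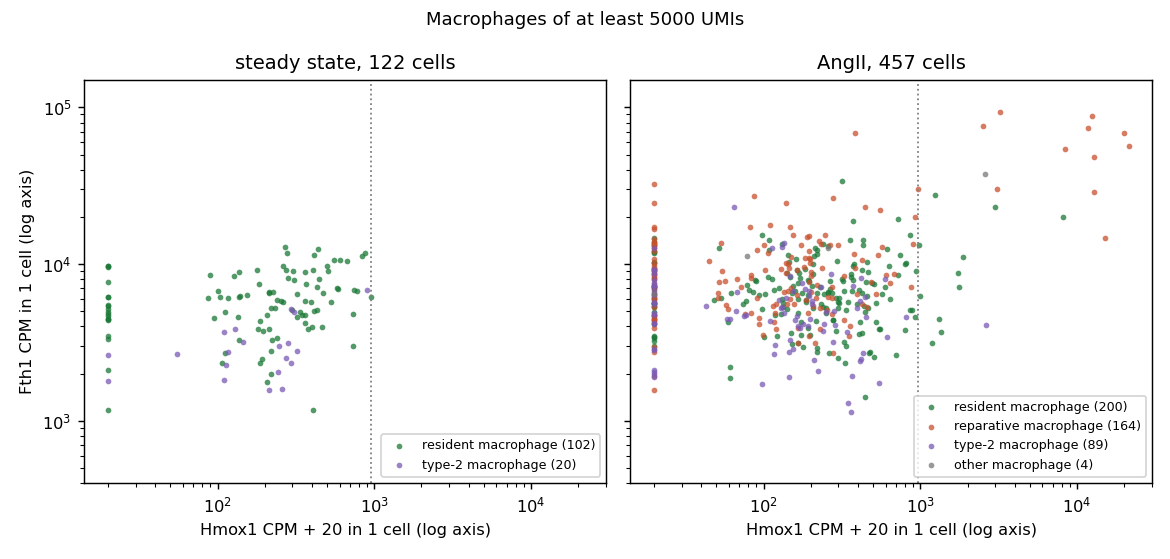
*Fth1* level against *Hmox1* level in single macrophages of at least 5000 UMIs, each in CPM on log axes with 20 CPM added to *Hmox1*, for 122 cells at steady state and 457 on AngII. The dotted line stands at the highest steady state *Hmox1* value, 939 CPM, and 25 AngII cells lie beyond it, up to 21318 CPM.

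The 25 cells were chosen by *Hmox1* alone, and 6 of the other 9 genes were at least 2-fold higher in them by summed level. Of 8845 genes counted, 4.71% were higher by that mark and 9.21% lower. The median *Fth1* level of the 25 cells was 27675 CPM, against 6492 CPM in the other 432 AngII macrophages of that depth. Their median *Ftl1* level was 12779 against 4572 CPM. *Blvrb* had medians of 391 and 118 CPM, and *Slc11a1* 277 and 82.6 CPM. Ferroportin (*Slc40a1*) was found in 52.0% of the 25 cells and in 5.79% of the others. Transcripts of both ferritin chains, ferroportin and *Blvrb* were thus higher, by medians or shares, in the same group of cells. Depth was similar, with median totals of 15607 and 13662 UMIs, and so was the median number of markers of a second lineage (3 and 3).

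Summed over the cells, the difference was widest for the exporter. *Slc40a1* had 304 CPM in the 25 cells and 5.72 CPM in the rest, a ratio of 53.1 (36.9 to 78.0). The 120 UMIs came from 13 cells, and 40 of them from 1 reparative cell, which the counting interval does not cover. *Fth1* was 4.72 times as high (4.63 to 4.81), *Ftl1* 3.02 times (2.94 to 3.11), *Blvrb* 3.22 times and *Slc11a1* 3.09 times. *Cd163* was 3.65 times as high (3.17 to 4.19) although found in only 9 of the 25 cells. *Tfrc* (1.63, 0.892 to 2.77) and *Hp* (0.630, 0.357 to 1.03) had intervals that include 1, and *Lcn2* had 0 UMIs in the 25 cells and 28 in the rest. For these 3 genes, which import transferrin iron or are highest in monocytes and neutrophils, no higher level was detectable at this depth.

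**Figure D3:**
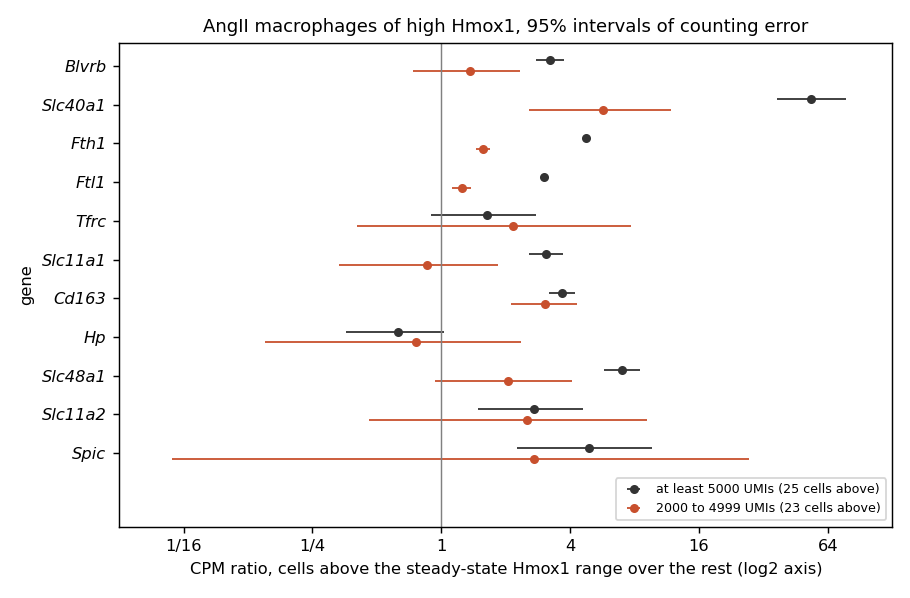
Ratio of CPM in AngII macrophages with *Hmox1* above 939 CPM over the remaining AngII macrophages, on a log axis, with 95% counting intervals, for cells of at least 5000 UMIs (black, 25 cells) and of 2000 to under 5000 UMIs (red, 23 cells). *Slc40a1* stands highest in both, at 53.1 and 5.66, and *Hp* lies under 1 in both.

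The macrophage subclasses contributed in different ways. The 12 reparative cells had a median of 12047 CPM of *Hmox1* and 55667 CPM of *Fth1*, against 112 and 8038 CPM in the 152 reparative cells under the limit, and *Cd163* was found in 0 of the 12. In the 11 resident cells the medians were 1343 CPM of *Hmox1* and 8757 CPM of *Fth1*, against 186 and 6478 CPM in the other 189. *Cd163* was found in 9 of these 11 and in 49.7% of the 189. *Slc40a1* was found in 7 of 11 resident and 6 of 12 reparative cells. The ferritin difference lay mostly in the reparative cells, and that of *Slc40a1* in both subclasses.

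Shallower cells gave the same direction for most genes with smaller ratios. Among AngII macrophages of 2000 to under 5000 UMIs, 23 exceeded the limit and 240 did not. *Slc40a1* had a ratio of 5.66 (2.57 to 11.9), *Cd163* 3.04 (2.11 to 4.304), *Fth1* 1.56 (1.44 to 1.69) and *Ftl1* 1.24 (1.12 to 1.38). The values of *Slc11a1* (0.854, 0.334 to 1.83) and *Blvrb* (1.36, 0.736 to 2.33) had intervals that include 1. At this depth a level of 939 CPM is a few UMIs, and the part of counting error in the choice of these cells was not tested.

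Of the 49 other genes of heme and iron handling in a list, 32 had at least 50 UMIs over these cells. 3 were at least 2-fold higher in the 25 cells and 0 were 2-fold lower, beside 4.71% higher and 9.21% lower of 8845 genes. *Slc48a1*, which carries heme out of the phagolysosome (HRG1), had 377 against 53.9 CPM (6.998, 5.75 to 8.48) and was found in 21 of the 25 cells. *Slc11a2*, the transporter DMT1, had a ratio of 2.70 (1.49 to 4.59), and *Spic*, the transcription factor of red pulp macrophages, 4.87 (2.25 to 9.67). *Blvra*, listed with heme uptake, transport and breakdown, had 98.7 and 101.5 CPM (0.973, 0.686 to 1.34). Globin transcripts of red cells were at 0 of 395069 UMIs in the 25 cells, which allows up to 7.59 CPM, and at 4.57 CPM in the rest. eYFP was found in 40.0% of the 25 cells and 39.4% of the rest. Of genes outside the list, looked up after their values were seen, the 3 with the highest ratio after 20 CPM had been added to both levels were *Gclm*, a subunit of the enzyme that makes the precursor of glutathione (16.6 times without that addition), *Ednrb*, an endothelin receptor (6.97 times), and *Fabp5*, a fatty acid-binding protein (5.48 times).

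Outside macrophages, values above 939 CPM were found in 4 of 89 classical monocytes, 1 of 11 nonclassical monocytes, 1 of 34 neutrophils, 1 of 68 type-1 dendritic cells and 1 of 19 migratory dendritic cells on AngII. They were found in 0 of 74 T cells and 0 of 36 B cells, and in no class at steady state. In small classes 1 such cell set the level: migratory dendritic cells had 451 CPM of *Hmox1* with it and 10.2 without, and nonclassical monocytes 426 and 128.2 CPM.

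*Blvrb*, which reduces biliverdin, marked resident macrophages and was lower on AngII without passing 2-fold. Resident macrophages had 379 CPM at steady state and 268 CPM on AngII (ratio 0.707, 0.634 to 0.789). The median per cell of at least 5000 UMIs went from 367 to 197 CPM, and the share after thinning from 28.4% to 21.04%. Over the other macrophages of the same library the resident level was 3.20 times as high at steady state (2.46 to 4.20) and 2.02 times on AngII (1.84 to 2.22). The steady state ratio was 1.54 with classes set by summed markers, and that on AngII 1.59 to 1.98 under 6 alternatives. B cells had *Blvrb* too, at 109 and 154 CPM, and its message was found in 41.2% of them at steady state against 2.56% of T cells.

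Ferroportin (*Slc40a1*) was sparse. Resident macrophages had 49.9 CPM at steady state (65 UMIs) and 29.5 CPM on AngII (111 UMIs), a ratio of 0.592 (0.432 to 0.817), and the thinned shares were 5.17% and 4.81%. At steady state the type-2 macrophages had 4 UMIs (7.30 CPM), so the resident level was 6.83 times as high (2.54 to 25.8). On AngII this ratio was 1.13 (0.876 to 1.45). The reparative macrophages then had 37.7 CPM in 3.73% of cells, which is the pattern of few cells with many transcripts described above: of the AngII macrophages of at least 5000 UMIs, 5 exceeded the highest steady state value, 481 CPM, and held 34.1% of the *Slc40a1* UMIs.

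Neutrophils had the highest *Slc40a1* level on AngII, 61.4 CPM from 53 UMIs in 31 of 346 cells. That was 2.23 times the level of macrophages (1.63 to 3.01), and fell under 2-fold after thinning (1.73), in cells of at least 5000 UMIs (1.44), when each cell counted equally (1.35) and with classes set by summed markers (1.69). T cells had it in 0.336% of cells at a median of 1092 UMIs, beside 8.96% of neutrophils at a median of 1188. At steady state 11 UMIs lay in 2 of the 4 neutrophils. Classical monocytes on AngII had 5 UMIs (3.36 CPM).

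The ferritin chains were the most abundant of the genes. In resident macrophages *Fth1* went from 5858 CPM at steady state to 7481 CPM on AngII (1.28, 1.25 to 1.31) and *Ftl1* from 4753 to 5573 CPM (1.17, 1.14 to 1.21). Together they made 1.06% and 1.31% of all UMIs of these cells, and 1.92% in reparative macrophages. Reparative macrophages had 12502 CPM of *Fth1*, 1.67 times the resident level (1.65 to 1.70), and 6660 CPM of *Ftl1* (1.20 times). The values per cell moved less than the sums: the median of resident macrophages was 5805 and 6519 CPM for *Fth1* and 4599 and 5039 CPM for *Ftl1*. Both chains have near-identical pseudogene copies, so a part of their reads is uncertain. The copies held at most 0.701% of the UMIs of their parent (*Ftl1-ps1* on AngII).

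The cells above the steady state range of *Fth1* were more frequent than those of *Hmox1*. Of the 457 deep AngII macrophages, 68 (14.9%) exceeded 12889 CPM of *Fth1* and held 33.5% of its UMIs, with 45 of them reparative and 19 resident. For *Ftl1*, 49 (10.7%) exceeded 9352 CPM. High levels of ferritin transcripts were therefore not limited to the 25 cells with high *Hmox1*.

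The balance of the chains differed between classes and between libraries. The ratio of *Fth1* to *Ftl1* UMIs was 1.23 in resident macrophages at steady state (1.19 to 1.28) and 1.34 on AngII (1.32 to 1.37). Type-2 macrophages went from 0.683 (0.641 to 0.728) to 1.25 (1.22 to 1.28), and classical monocytes from 0.899 (0.788 to 1.03) to 2.70 (2.62 to 2.78). The heavy chain moved further than the light one: in classical monocytes *Fth1* was 3.69 times as high on AngII (3.35 to 4.07) and *Ftl1* 1.23 times (1.12 to 1.35). Reparative macrophages stood at 1.88 and neutrophils at 2.46, while B cells were at 2.72 and 2.57 and T cells at 1.80 and 2.03. Nonclassical monocytes on AngII owed their *Fth1* level of 16196 CPM and their ratio of 3.91 to 1 cell with 80.9% of the UMIs, and without it the values were 3821 CPM and 0.893. The 11 steady state classical monocytes are few, and the AngII class is the one led by immunoglobulin transcripts. Of the 11, 10 held at least 3 markers of a second lineage. On AngII 151 of the 251 led the next class by at most 1 marker. Without the cell with the most *Fth1*, the ratio of the chains in classical monocytes was 0.682 at steady state and 2.59 on AngII.

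**Figure D4:**
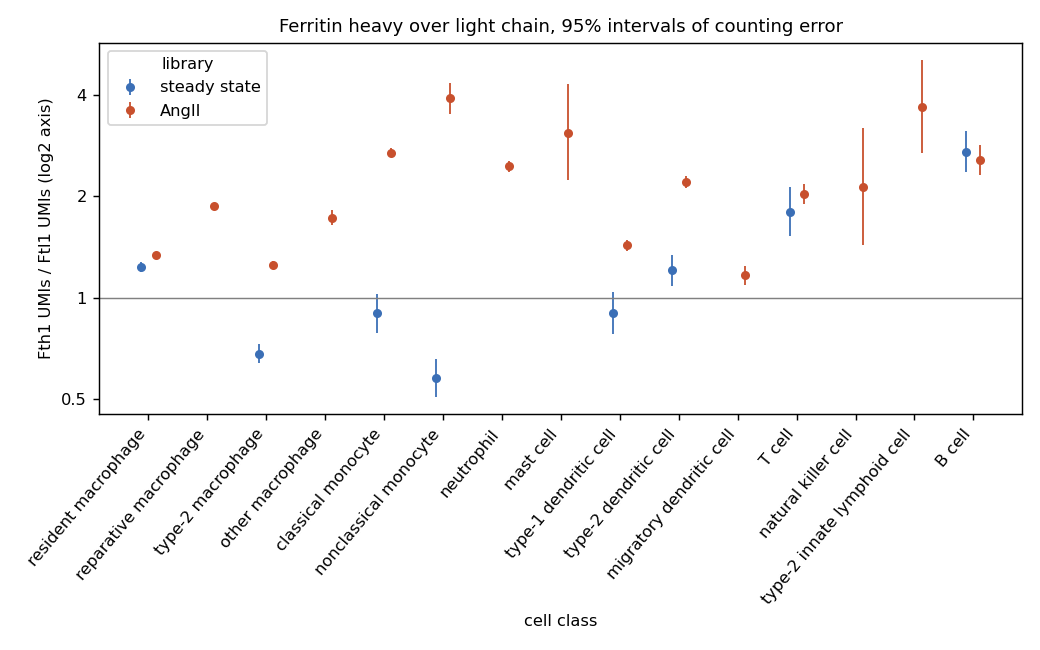
Ratio of *Fth1* to *Ftl1* UMIs by cell class and library, with 95% counting intervals. Classical monocytes stand at 0.899 at steady state and 2.70 on AngII, resident macrophages at 1.23 and 1.34, and the nonclassical monocyte value of 3.91 on AngII rests on 1 cell.

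*Tfrc*, the receptor that takes up transferrin-bound iron, was lower in AngII macrophages. Resident macrophages had 86.7 CPM at steady state (113 UMIs) and 37.0 CPM on AngII (139 UMIs), a ratio of 0.426 (0.330 to 0.551), and all macrophages 74.0 and 25.1 CPM (0.339, 0.274 to 0.421). It was found in 58.8% and 30.0% of resident macrophages of at least 5000 UMIs, and in 7.76% and 3.81% after thinning. Reparative macrophages (16.7 CPM) and type-2 macrophages (16.6 CPM) on AngII were lower still. With classes set by summed markers the resident ratio was 0.565.

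T cells showed the other direction. They had 26.3 CPM of *Tfrc* at steady state (9 UMIs) and 110 CPM on AngII (144 UMIs), a ratio of 4.17 (2.13 to 9.30), with a share of 17.9% and 17.8% of cells at medians of 8284 and 1092 UMIs. Thinned, it was found in 0 of 39 T cells, which allows up to 7.69%, and in 9.64%. *Tfrc* is known to be high in dividing lymphocytes. B cells had 69.2 and 32.7 CPM.

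*Slc11a1*, the phagosomal transporter, was a myeloid gene that differed little between the libraries. Resident macrophages had 117 and 133 CPM (ratio 1.14, 0.947 to 1.37), all macrophages 132 and 126 CPM (0.959, 0.835 to 1.11), classical monocytes 179 and 176 CPM and nonclassical monocytes 244 and 250 CPM. Type-2 macrophages had 168 CPM at steady state and 85.3 CPM on AngII (0.508, 0.393 to 0.659). Neutrophils on AngII had 152 CPM. T cells had 0 UMIs at steady state, which allows up to 8.76 CPM, and 14.5 CPM on AngII.

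*Cd163*, the scavenger receptor for hemoglobin and haptoglobin, had the lowest ratio of AngII over steady state among the 9 genes counted in resident macrophages. Resident macrophages had 1201 CPM at steady state and 428 CPM on AngII, a ratio of 0.357 (0.332 to 0.382). In cells of at least 5000 UMIs the median went from 1144 CPM (102 cells, 0 to 4724) to 27.3 CPM (200 cells, 0 to 5037), and the share with *Cd163* from 90.2% to 51.5%. The highest AngII cell was as high as the highest steady state cells, so the ranges overlap, while both the median and the share of cells with the message were lower. After thinning, 62.1% and 24.7% of resident macrophages had it, against 5.13% and 1.68% of T cells unthinned.

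*Cd163* was highest in resident macrophages in both libraries. Its level was 9.82 times that of the other macrophages at steady state (7.69 to 12.7) and 7.35 times on AngII (6.54 to 8.28), and reparative macrophages had 32.9 CPM. Type-2 dendritic cells at steady state had 195 CPM, and 12.1 CPM on AngII. At steady state it was found in 92.3% of these 13 cells (median 24476 UMIs), beside 89.7% of resident macrophages (median 9800 UMIs). After thinning the shares were 7.69% and 62.1%, so they were not alike at matched depth. Of the 13 cells, 8 held at least 3 markers of a second lineage. Type-2 macrophages had *Cd163* in 45.5% of cells at steady state (median 26183.5 UMIs) and 21.4% on AngII (median 1529 UMIs). Thinned, their shares were 9.52% and 10.04%, so no fall was seen at matched depth. With classes set by summed markers the steady state ratio was 1.86.

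Haptoglobin (*Hp*) was a monocyte and neutrophil gene. Classical monocytes had 543 CPM at steady state (found in 11 of 11 cells) and 725 CPM on AngII (1.33, 1.07 to 1.68), and AngII neutrophils 567 CPM, 8.99 times the macrophage level (7.97 to 10.1). Macrophages had little at steady state, 10 UMIs or 5.40 CPM, and 63.1 CPM on AngII (11.7 times, 6.31 to 24.5). Resident macrophages went from 7.68 to 34.3 CPM (4.47, 2.35 to 9.54), a ratio of 1.74 with classes set by summed markers. Reparative macrophages stood at 119 CPM, 3.48 times the resident level (2.84 to 4.28). In T cells *Hp* was at 0 UMIs at steady state, with the same limit, and at 12.2 CPM on AngII, of which 68.8% came from 1 cell.

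*Lcn2*, the siderophore-binding protein of neutrophil granules, had 13 UMIs in all steady state cells, 6 of them in the 4 neutrophils. On AngII it had 246 UMIs, of which 164 lay in neutrophils. Their level was 190 CPM against 5.35 CPM in macrophages, 35.5 times as high (25.8 to 49.5), and *Lcn2* was found in 12.7% of all neutrophils and 52.9% of the 34 of at least 5000 UMIs. Classical monocytes had 14.1 CPM. Only 4 neutrophils were captured at steady state, too few for a level.

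**Figure D5:**
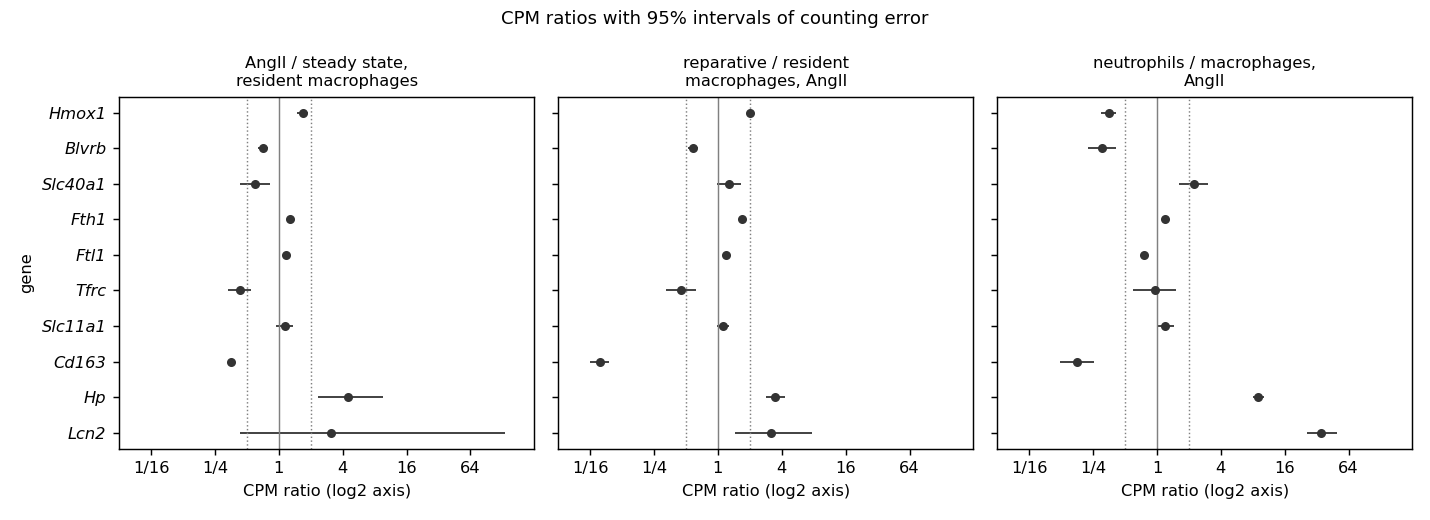
CPM ratios of the 10 genes with 95% counting intervals on log axes for AngII over steady state in resident macrophages, reparative over resident macrophages on AngII, and neutrophils over macrophages on AngII. Dotted lines mark 0.5 and 2. *Cd163* lies under 0.5 in all 3 panels, at 0.357, 0.0768 and 0.178, and *Hp* above 2, at 4.47, 3.48 and 8.99.

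Counts of genes past 2-fold were set against all genes with at least 50 UMIs over the groups compared. In resident macrophages, AngII over steady state, 1 of 9 genes (*Hp*) was higher and 2 (*Tfrc*, *Cd163*) were lower, beside 6.12% higher and 5.40% lower of 8166 genes. The median log2 ratio was 0.19 over the 9 genes and 0.01 over all. In all macrophages 3 of 10 (*Hmox1*, *Hp*, *Lcn2*) were higher and 2 (*Tfrc*, *Cd163*) lower, beside 7.17% and 6.43% of 9951 genes, with medians of 0.11 and 0.00. The *Lcn2* call rests on 1 UMI at steady state and 52 on AngII (9.90, 1.70 to 398.6). Its AngII level in macrophages was 5.35 CPM. AngII B cells had 6.53 CPM of *Lcn2* (3 UMIs) and AngII T cells 0.761 CPM (1 UMI).

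Resident macrophages were also compared with the others of their library, which at steady state are 22 type-2 cells. There 3 of 8 genes (*Blvrb*, *Slc40a1*, *Cd163*) were higher and 0 lower, beside 14.1% and 4.42% of 5130 genes, with median log2 ratios of 0.98 and 0.16. On AngII 3 of 10 (*Blvrb*, *Tfrc*, *Cd163*) were higher and 2 (*Hp*, *Lcn2*) lower, beside 2.50% and 2.16% of 9486 genes, with medians of 0.04 and 0.06. *Tfrc* had a ratio of 2.10 there (1.62 to 2.73) and 1.98 at steady state. When cells with at least 3 markers of a second lineage were left out, it was 1.41 on AngII. The lower calls ended for *Hp* after thinning (0.660) and with each cell counted equally (0.563), and for *Lcn2* after thinning (0.739), with equal cells (0.544) and with summed markers (0.610).

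Reparative over resident macrophages on AngII, 2 of 9 genes (*Hmox1*, *Hp*) were higher and 2 (*Tfrc*, *Cd163*) lower, beside 1.92% and 2.76% of 8808 genes, with medians of 0.26 and -0.05. Neutrophils over macrophages had 3 of 10 higher (*Slc40a1*, *Hp*, *Lcn2*) and 3 lower (*Hmox1*, *Blvrb*, *Cd163*), beside 8.27% and 16.5% of 9696 genes, with medians of 0.11 and -0.12. *Hmox1* in neutrophils was at 0.352 of the macrophage level (0.297 to 0.414) and at 0.826 with classes set by summed markers.

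Within resident macrophages few of the genes passed 2-fold by lineage label. At steady state, *Yfp*+ over *Yfp*− cells (90 and 27), 0 of 8 genes were higher and 0 lower, beside 6.63% and 1.83% of 4101 genes, with medians of -0.07 and 0.05. *Cd163* had 1139 CPM in *Yfp*+ and 1638 CPM in *Yfp*− cells (0.695, 0.609 to 0.796). On AngII (197 and 515 cells) 0 of 9 were higher and 1 (*Hp*, 0.478, 0.330 to 0.687) was lower, beside 0.648% and 0.579% of 7254 genes, with medians of 0.00 and 0.02. This *Hp* value reversed to 1.27 after thinning. *Hmox1* had 324 CPM in *Yfp*+ and 524 CPM in *Yfp*− cells on AngII (0.619, 0.559 to 0.685), while *Fth1* had 7503 and 7449 CPM. A shallow cell can carry eYFP without a UMI of it, and the number of such cells among the *Yfp*− cells was not tested.

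The wider list of 49 genes in 8 groups moved in few places. In resident macrophages, AngII over steady state, 32 had enough UMIs, with 1 higher and 2 lower, beside 6.12% and 5.40% of all genes. *Slc39a14*, a transporter of iron not bound to transferrin (ZIP14), went from 3.84 CPM (5 UMIs) to 46.0 CPM (11.99 times, 5.04 to 37.4). Transferrin (*Trf*) went from 1349 to 627 CPM (0.465, 0.437 to 0.495), and ceruloplasmin (*Cp*), the ferroxidase that works with ferroportin, from 135 to 45.5 CPM (0.337, 0.271 to 0.418). In all macrophages 1 of 34 was higher (*Slc39a14*, 8.25 times) and 4 were lower: *Cp* (0.209), *Abcg2*, an exporter of heme (0.409), *Trf* (0.451) and the transcription factor *Maf* (0.456). Of all genes 7.17% were higher and 6.43% lower. By group, 0 of 7 genes of heme synthesis, 0 of 3 of iron storage and chaperones and 0 of 4 of mitochondrial iron passed 2-fold there.

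The same list was counted between classes. In resident macrophages at steady state 6 of 20 were higher than in the type-2 cells and 0 lower, beside 14.1% and 4.42% of all genes: *Cp* (9.25 times), *Trf* (4.35), *Maf* (3.71), *Ncoa4*, the receptor that delivers ferritin to lysosomes (2.89), *Nfe2l2*, which encodes NRF2 (2.51), and *Hfe* (2.01). On AngII, 2 of 33 were higher than in the other macrophages, *Cp* (8.74) and *Maf* (2.37), beside 2.50% of all genes, and the same 2 were the ones lower in reparative than in resident macrophages (0.107 and 0.477), of 32, beside 2.76% lower of all genes. Neutrophils over macrophages had 1 of 33 higher, *Fbxl5*, a sensor of iron (2.13, 1.81 to 2.49), and 7 lower: *Cpox* (0.302), *Blvra* (0.351), *Slc11a2* (0.205), *Steap3* (0.229), *Aco1* (0.326), *Maf* (0.292) and *Cp*, with 0 UMIs in neutrophils. Of all genes 8.27% were higher and 16.5% lower there. *Yfp*+ over *Yfp*− resident macrophages had 0 past 2-fold of 18 at steady state and 0 of 29 on AngII.

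Across 17 class and library groups of at least 20 cells, the gene most like *Hmox1* in its level was *Ftl1* (Pearson r of log2(CPM + 20) = 0.934), followed by *Cstb* and *Lamp1*, of 10439 genes compared. *Ftl1* was closest to *Sgpl1* (0.969) and then *Hmox1*, and *Fth1* to *Lst1* (0.943). *Blvrb* was closest to *Cltc* (0.861), *Slc40a1* to *Cd33* (0.895), *Tfrc* to *Timm21* (0.897) and *Slc11a1* to *Sqor* (0.972). *Cd163* was closest to *Fxyd2* (0.974) and *Cbr2* (0.972), of which *Cbr2* is a resident marker used in the gating. *Hp* was closest to *Arg2* (0.948) and *Lcn2* to *Ppp1r3d* (0.917) and *Cxcr2* (0.915). The groups share libraries and depth, so these are descriptions of 17 points. Between the 10 genes, r was 0.818 for *Fth1* with *Ftl1*, 0.819 for *Fth1* with *Hmox1* and -0.463 for *Fth1* with *Tfrc*.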

How the data were processed

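The authors deposited raw UMI counts per gene and cell barcode, 1 matrix per library, without normalization. Per the labels and methods, libraries were made with Chromium 3′ chemistry, reads were demultiplexed with Je and mapped to GRCm38.p6 with GENCODE and the eYFP sequence, and the submitters' processing notes name bcl2fastq and Cell Ranger 3.1.0. Counts at the 3′ end of a message do not show splicing, and near-identical copies share reads.

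The cell filter, after the study's methods, required 300 to 6500 detected genes and a mitochondrial share of no more than 5%, and left 306 of 346 and 4198 of 4419 barcodes. A cell took the class of which the largest share of 8 markers was found, with at least 2 markers, from 16 lists, and macrophages took 1 of 3 subclasses in the same way. No doublet caller was run. Cells with markers of a second lineage were kept, and 1 alternative left out those with 3 or more. Classes under 10 cells have no level. Ratios of summed CPM have exact binomial intervals, levels exact Poisson and shares Clopper-Pearson intervals at 95%, and a count of 0 was given a limit of 3 UMIs. A gene was counted in a comparison from 50 UMIs and called at a ratio of at least 2 or at most 0.5. With 1 library per condition no test was run. Single-cell medians used cells of at least 5000 UMIs. Shares were also taken after thinning cells to 1000 UMIs, with shallower cells left out (1 resident macrophage at steady state and 213 on AngII).

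The 10 genes, the 49 further genes and the classes were chosen with earlier results of these data known. The genes named are the 10, those of the 49 past 2-fold in a comparison, and for each of the 10 the genes with the highest r. *Slc48a1*, *Slc11a2* and *Spic* were named from the comparison by *Hmox1* level. *Gclm*, *Ednrb*, *Fabp5*, *Hba-a1* and the genes that lead the monocyte and steady state type-2 classes were named after their values were seen. The comparison of cells by *Hmox1* level was added after its values were seen. Alternatives were all barcodes, 500 genes, 3 markers, summed marker UMIs, no cells with a second lineage, thinning, totals without mitochondrial and ribosomal genes, a mean over cells, leaving out the top cell, no UMI minimum, 1.5-fold, and *Yfp*+ from 2 UMIs. Chosen after seeing the data were cells of at least 5000 UMIs and leaving out non-B cells with over 5% immunoglobulin UMIs. Computations ran in Python 3.11.15 with pandas 2.3.3, NumPy 2.4.6 and SciPy 1.17.1, figures were drawn with Matplotlib 3.10.9, and the scripts were tested on simulated data. The genome build of the coordinates is GRCm38 with GENCODE M21. The flow cytometry and histology of the study were not analysed here.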

Additional observations from a re-analysis of the deposited data

Results flagged for a closer look

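For 3 genes the ratio of resident over other macrophages lay on different sides of 1 in the libraries. *Hmox1* had a ratio of 1.34 at steady state and 0.738 on AngII, *Fth1* 1.98 and 0.779, and *Ftl1* 1.09 and 0.979. The difference between the libraries was not tested, since each is 1 sample, and the other macrophages are type-2 cells alone at steady state and type-2, reparative and remaining cells on AngII.

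Transcripts of the globin gene *Hba-a1*, which no comparison between classes or conditions used, were found in type-2 innate lymphoid cells. *Hba-a1* had 17 UMIs in 6 of 8 such cells at steady state and 11 UMIs in 3 of 12 on AngII. Of these 11 UMIs, 6 lay in 1 cell. Macrophages had 0 UMIs at steady state and 7 in 6 of 2327 cells on AngII, and AngII neutrophils had 3 in 3 of 346. *Hbb-bs*, another globin gene, had 0 UMIs in the type-2 innate lymphoid cells of both libraries.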

How the results depend on the processing

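With 1 library per condition and 4 steady state neutrophils, the limits are the number of samples, the shallow AngII cells and the marker classes. No paired analysis was possible because each group is 1 library and no test was run. The leading class of a gene and library stood as in the report for 14 to 20 of 20 pairs. Of 104 recomputed counts, 82 stayed within 1.5 times, and of 248 recomputed ratios of genes past 2-fold in the report, 30 were under it. For resident macrophages on AngII over steady state the count of 3 became 1 with summed markers, 1 after thinning (fewer genes reach 50 UMIs) and 5 at 1.5-fold, and for all macrophages 5 became 2 after thinning. For resident over other macrophages at steady state 3 became 1 with summed markers, 1 after thinning, and 5 with a mean over cells, without the top cell, with no UMI minimum and at 1.5-fold. On AngII 5 became 2 without cells of a second lineage, 1 after thinning and 1 with a mean over cells. For *Yfp*+ over *Yfp*− cells, 0 at steady state became 2 with no minimum and 1 from 2 eYFP UMIs, and 1 on AngII became 0 with all barcodes, 3 markers, summed markers, thinning or 2 eYFP UMIs and 2 with no minimum or at 1.5-fold. The ratio that changed direction was *Hp* there, 1.27 after thinning. Other causes were not tested. The count of 6 for neutrophils became 4 with summed markers, after thinning and with a mean over cells.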
